A study of Mus musculus with 12 samples.

Results

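Kidneys of HDAC2-/- mice and WT mice were compared 4 h after warm ischemia, gene by gene, by function and by cell type. The comparison used 6 of the 12 arrays of the series, the 3 titled HDAC2_ischemia and the 3 titled WT_ischemia, chosen by title alone. All 12 mice were females of 8 to 12 weeks, with 1 array per mouse. HDAC2-/- mice carried floxed HDAC2 alleles (HDAC2fl/fl) and an inducible CreERT2, which by the methods gives deletion throughout the body. Controls were wild type ERT2cre by their labels and WT B6 by the methods. Mice of both genotypes had received tamoxifen at 100 mg/kg on 5 days with 7 days of recovery. In the ischemic mice the left renal pedicle had been clamped for 28 min, and the right kidney was removed at release. By the methods the mice lay on a pad heated to 37 °C, and labels and methods differ on the core temperature. The other 6 arrays, 3 of each genotype without ischemia, served as a second comparison and shared in the estimate of the spread. No sham operation was mentioned for them, so ischemia cannot be told apart from surgery. The labels name the tissue renal cortex and the methods name whole kidney.

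HDAC2 removes acetyl groups from histones and acts with HDAC1 in corepressor complexes such as CoREST, NuRD and Sin3, so that its loss can raise or lower transcripts directly or through other regulators. A few hours after ischemia, kidney tubules switch on stress and injury genes, among them Lcn2, Krt18 and the Sprr2 genes, while many transport genes of the nephron decline. Resident macrophages, vessels and interstitial fibroblasts respond in the same hours. In RNA of a whole piece of tissue, fewer cells of a type and less RNA per cell cannot be told apart.

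Values were log2 after robust multiarray average (RMA) normalization by the authors. Proximal tubule genes were at the top of the range, as Slc34a1, the phosphate transporter, which read 13.97, 13.88 and 13.95 in WT arrays 1 to 3 and 13.99, 13.86 and 13.88 in HDAC2-/- arrays 1 to 3, and Umod of the thick ascending limb lay between 12.61 and 13.60, so the arrays held kidney RNA. Adgre1 of macrophages lay between 6.14 and 6.80 and the liver gene Alb between 9.05 and 9.85. Arrays of ischemic kidneys are called WT arrays 1 to 3 and HDAC2-/- arrays 1 to 3 by their replicate numbers. WT array 2 stood apart, with a mean of 8.22 over small nuclear and nucleolar RNAs, against 8.95 and 9.11 on the other ischemic WT arrays and 8.76, 9.41 and 9.0 on the ischemic HDAC2-/- arrays, and with the lowest of all 12 array weights (0.35) from limma. HDAC2-/- array 1 had a weight of 0.569. Correlations across probe sets were 0.977 to 0.992 between the groups, 0.983 to 0.991 within ischemic WT and 0.986 to 0.992 within ischemic HDAC2-/-. The probe set of Hdac2 itself read 7.93, 8.17 and 7.94 in ischemic WT and 8.12, 7.95 and 8.32 in ischemic HDAC2-/- kidneys. How much of it lies in the deleted exons is not given in the sources used here, so it does not test the deletion, and each direction below rests on the labels. The study reports deletion by Western blot and immunoperoxidase staining in contralateral kidneys from its ischemia experiments. It does not state whether the mice of these arrays were among them.

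No probe set passed an adjusted p under 0.05 between the ischemic groups in limma (0 of 34472, 0%), and the smallest adjusted p was 0.187. The differences below are therefore described as higher or lower and not as changes. At an unadjusted p under 0.05 from limma, 1303 probe sets (3.78%) were higher and 970 (2.81%) lower in ischemic HDAC2-/- kidneys, together 6.59%. These counts were 670 and 947 without WT array 2, 2060 and 1491 without WT array 3, and 813 and 785 without HDAC2-/- array 2. With each array centred on its median they were 1481 and 846, and after quantile normalization 1168 and 1176. At least 2-fold at the same p, 41 (0.119%) were higher and 22 (0.0638%) lower. The higher ones were 21 probe sets without annotation, 7 with several gene symbols, 10 of immunoglobulin genes and 3 of other single genes. Of the lower ones, 19 were single genes other than immunoglobulins. Without WT array 3 there were 79 and 57, without HDAC2-/- array 1 63 and 73, and without WT array 2 43 and 46.

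Counted by gene, with the probe set of the highest mean standing for each of 22184 genes, 794 (3.58%) were higher and 698 (3.15%) lower at an unadjusted p under 0.05 from limma. The 3 arrays of one group lay wholly above the other for 1309 genes (5.9%) higher and 990 (4.46%) lower in ischemic HDAC2-/- kidneys. Without ischemia, 193 genes (0.87%) of HDAC2-/- kidneys were above WT and 272 (1.23%) below it at that p. The counts at 4 h were 414 and 591 without WT array 2, 474 and 495 without HDAC2-/- array 2, and 1228 and 1140 without WT array 3. The shares with all arrays, 3.58% higher and 3.15% lower, are the background for the gene lists. In a short list 1 gene alone lies above them, as 1 of 17 (5.88%) for T and NK cells or 1 of 12 (8.33%) for podocytes. Over all genes the median difference was 0.00, with 11126 above 0 and 10914 below. For a single gene, a two-sided exact permutation test of 3 arrays against 3 cannot give less than p = 0.1, the value of each gene below whose groups do not overlap.

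Several transcripts that mark the injured tubule were lower in ischemic HDAC2-/- kidneys. Lcn2, which encodes the iron-binding injury marker NGAL, read 10.50, 10.63 and 10.49 in ischemic WT and 10, 9.40 and 9.47 in ischemic HDAC2-/- kidneys. All 3 HDAC2-/- values lay below the WT values, which were close together. The difference was -0.92, or 1.89-fold lower (SE 0.18, 95% interval -1.31 to -0.52, adjusted p = 0.551 from limma), and between -1.10 and -0.81 when any 1 of the 12 arrays was left out. Lcn2 was also lower without ischemia, by a difference of -0.67, so that the difference of both differences was -0.25 (SE 0.26).

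Sprr2f, a small proline-rich protein of the cornified envelope, read 7.05, 6.93 and 7.48 in ischemic WT and 6.59, 5.31 and 5.60 in ischemic HDAC2-/- kidneys, a difference of -1.32 (SE 0.26, adjusted p = 0.551 from limma). Its near-identical neighbour Sprr2g, which can share signal with it, gave the same difference (SE 0.31). In both genes HDAC2-/- replicate 1 was the highest of its group and did not reach the WT arrays, and without it the differences were -1.70 and -1.74. That setting was the only one that gave Sprr2f an adjusted p under 0.05 in limma. Without ischemia Sprr2f differed by -0.02. Of 31 injury marker genes, 22 lay below 0 and 9 above, with a median of -0.17 against 0.00 over all genes. At an unadjusted p under 0.05 from limma 7 were lower (22.6%, against 3.15% of all genes) and 0 higher. The 7 included Sox9, a regulator of tubular repair, at -0.72 (SE 0.25), the keratins Krt18 at -0.70 (SE 0.32) and Krt19 at -0.48 (SE 0.17), and the chaperone Clu at -0.66 (SE 0.26). In Sox9, Krt18, Krt19 and Clu the groups overlapped. The list means also overlapped, at 8.71, 8.77 and 8.39 on the ischemic WT arrays and 8.63, 8.07 and 8.4 on the ischemic HDAC2-/- arrays. HDAC2-/- array 2 was the lowest ischemic array for 15 of the 31 genes. Without WT array 2 Krt18 differed by -0.32, and Sox9 differed by -0.41 without HDAC2-/- array 2 and -1.08 without HDAC2-/- array 1. The median was -0.04 and 3 genes were lower without HDAC2-/- array 2, -0.107 without WT array 2, and -0.26 without HDAC2-/- array 1, and 4 genes were lower without HDAC2-/- array 3. Havcr1, the marker KIM-1, read 7.60, 9.12 and 7.07 in WT and 7.06, 7.67 and 9.0 in HDAC2-/- kidneys, with wide overlap and a difference of -0.02 (95% interval -1.13 to 1.09).

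Among the 15 leading lower genes, others encode plasma proteins and protease inhibitors. Fgg, the gamma chain of fibrinogen, read 7.36, 8.70 and 7.78 in ischemic WT and 6.72, 6.70 and 6.84 in ischemic HDAC2-/- kidneys. The groups did not overlap, and Fgg differed by -1.19 (SE 0.27, adjusted p = 0.562 from limma) and -0.82 without WT array 2. The other fibrinogen chains were also lower, Fga at -0.77 (SE 0.23) and Fgb at -0.53 (SE 0.19), the latter with overlapping arrays, and Fga differed by -0.47 without WT array 2. Without ischemia the 3 chains differed by -0.08, -0.24 and -0.02. In their list of 27 complement and clotting genes, however, the median was 0.06, with 16 higher and 11 lower, and 5 were lower and 1 higher at an unadjusted p under 0.05. That median lay between -0.07 and 0.07 when single arrays were left out, and was below 0 without WT array 2 or 3 or HDAC2-/- array 1. The lower count was 3 without WT array 1 or 3 or HDAC2-/- array 1.

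Serpina3n, an acute-phase inhibitor of serine proteases, read 9.50, 7.92 and 8.64 in ischemic WT and 7.58, 7.54 and 7.63 in ischemic HDAC2-/- kidneys. The spread lay in the WT group, where replicate 1 was highest, and the difference of -1.10 (SE 0.27) became -0.70 without that array. Serpinb1a, an inhibitor of neutrophil elastase, read 6.81, 7.57 and 6.97 against 6.20, 5.41 and 5.79, a difference of -1.32 (SE 0.26, adjusted p = 0.551 from limma). The other leading lower genes included Nt5c1a, a nucleotidase that splits AMP, at -1.31 (SE 0.24), Abca13, an ABC transporter, at -1.11 (SE 0.22), Rgs2, which dampens G protein signals, at -0.92 (SE 0.21), and Slc9a3, the sodium-hydrogen exchanger of the proximal tubule, at -0.91 (SE 0.28). Car3, Thbs2, Cyp4f15, Speer4d and Eprn completed the 15. WT array 2 was the highest WT array for 11 of the 15 genes, and without it their differences ranged from 0.66 to 1.49 in size.

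**Figure D1:**
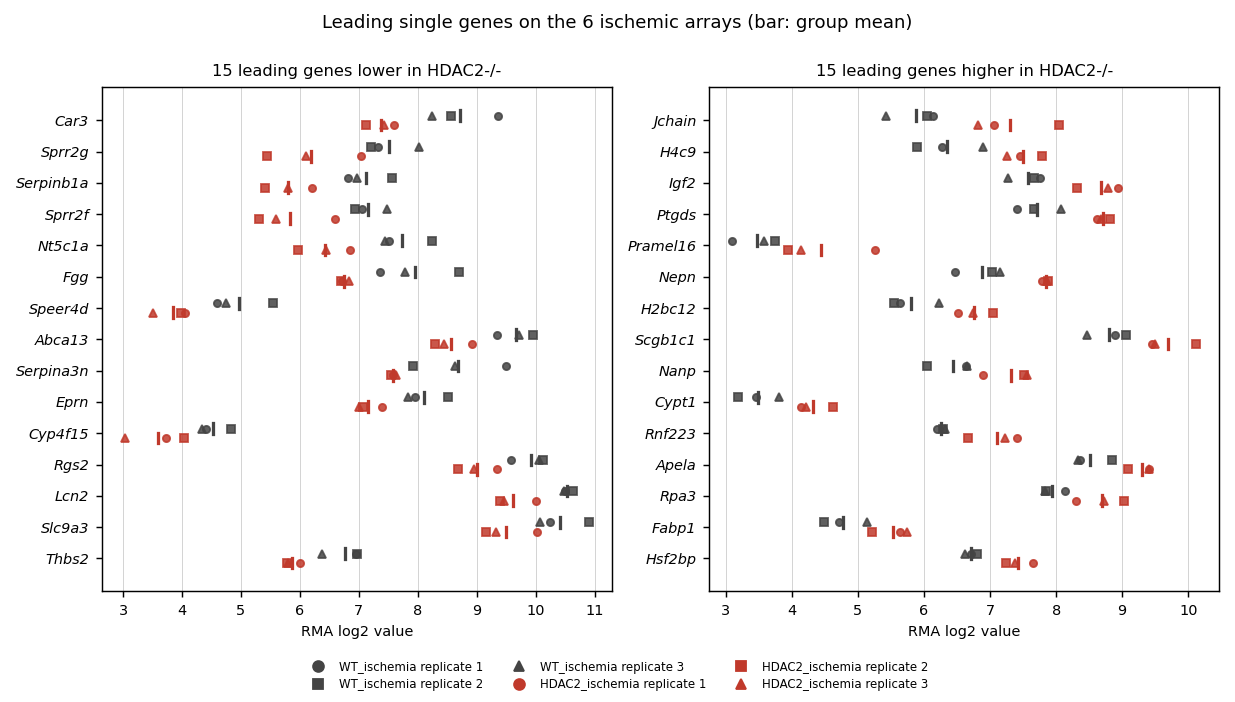
RMA log2 values (x axis) of the 15 leading lower genes (left) and 15 leading higher genes (right) on the 3 ischemic WT arrays (grey) and 3 ischemic HDAC2-/- arrays (red), with marker shape for the replicate and a bar for the group mean. The groups do not overlap in any of these genes because that was part of the rule that chose them, and the WT values of Lcn2 lie closer together than its HDAC2-/- values.

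Among genes higher in ischemic HDAC2-/- kidneys, the leading gene was Jchain, which joins IgA and IgM into polymers. It read 6.14, 6.05 and 5.43 in ischemic WT and 7.06, 8.04 and 6.81 in ischemic HDAC2-/- kidneys, a difference of 1.43, or 2.69-fold (SE 0.37, adjusted p = 0.701 from limma). Igf2, a fetal growth factor, read 7.76, 7.67 and 7.27 against 8.93, 8.32 and 8.78, a difference of 1.11 (SE 0.41, adjusted p = 0.72 from limma). Ptgds, a prostaglandin D synthase, read 7.40, 7.67 and 8.07 against 8.62, 8.81 and 8.68, a difference of 0.99 (SE 0.21, adjusted p = 0.551 from limma). In all 3 genes every HDAC2-/- array exceeded every WT array.

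Other leading higher genes were Nepn at 0.96 (SE 0.24), Apela, a peptide that binds the apelin receptor, at 0.79 (SE 0.27), Fabp1, a fatty acid-binding protein, at 0.75 (SE 0.28), and 2 histone genes given below. In kidneys without ischemia Ptgds, Nepn and Fabp1 were also higher in HDAC2-/- mice, by 0.56, 0.75 and 0.83, whereas Igf2 and Apela differed by -0.16 and -0.27. For Nanp and Rpa3 a second probe set gave 0.23 and -0.35 against 0.88 and 0.75, so for Rpa3 the direction depended on the probe set. Pramel16, Scgb1c1, Cypt1, Rnf223 and Hsf2bp completed the 15, of which Pramel16 and Cypt1 had means near the low end of the array. Without HDAC2-/- array 1 Pramel16 differed by 0.56 instead of 0.97.

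Along the nephron, the lists of the proximal tubule held no gene at an unadjusted p under 0.05, and those of the distal segments held several lower ones. Slc9a3 of the proximal tubule, given above at -0.91, is in neither proximal list. Of 16 genes of the convoluted proximal tubule, none had an unadjusted p under 0.05 from limma in either direction, with a median of -0.02, and the same held for 10 genes of its straight part (median 0.03). When single arrays were left out the medians lay between -0.07 and 0.02 and between -0.06 and 0.16. Slc5a2, the glucose transporter SGLT2, read 12.38, 12.31 and 12.32 in ischemic WT and 12.37, 12.35 and 12.25 in ischemic HDAC2-/- kidneys.

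Of 12 genes of the distal convoluted tubule, 10 lay below 0 and 2 above, with a median of -0.34 against 0.17 without ischemia. At an unadjusted p under 0.05 from limma 5 were lower (41.7%, against 3.15% of all genes) and 1 higher (8.33%, against 3.58%). Trpm6, a magnesium channel, read 7.91, 8.85 and 8.00 in ischemic WT and 7.74, 7.02 and 7.56 in ischemic HDAC2-/- kidneys, a difference of -0.81 (SE 0.25, adjusted p = 0.713 from limma). The groups did not overlap, and WT replicate 2 stood highest. Trpv5, a calcium channel, differed by -0.87 (SE 0.29), Slc8a1, the sodium-calcium exchanger, by -0.66 (SE 0.25), Wnk1, a kinase that controls salt transport, by -0.56 (SE 0.18), and Slc12a3, the thiazide-sensitive cotransporter, by -0.46 (SE 0.20). Pvalb, a calcium buffer of the same segment, was on the other side at 0.82 (SE 0.27). The arrays of Trpv5 and of Pvalb overlapped between the groups. Without WT array 2 the list median was -0.27 with 2 lower genes at that p, Trpm6 and Trpv5 each differed by -0.51 and Wnk1 by -0.33. Without HDAC2-/- array 2 the median was -0.23 with 2 lower, and Slc12a3 differed by -0.28. Without HDAC2-/- array 3, 3 were lower. WT array 2 was the highest ischemic array for 9 of the 12 genes, and HDAC2-/- array 2 was the lowest for 9. Leaving out both of these arrays together was not tested. The list means overlapped, at 9.64, 9.94 and 9.68 on the ischemic WT arrays and 9.72, 9.29 and 9.41 on the ischemic HDAC2-/- arrays.

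In the thick ascending limb, Egf, which the kidney secretes into urine, read 11.29, 12.12 and 11.15 in ischemic WT and 11.24, 9.87 and 10.24 in ischemic HDAC2-/- kidneys. HDAC2-/- replicate 1 lay among the WT arrays, and Egf differed by -1.07 (SE 0.30, adjusted p = 0.713 from limma) and -0.77 without WT array 2. Slc12a1, the furosemide-sensitive cotransporter, gave -0.84 (SE 0.28) with overlap through the same array, while Bsnd, a chloride channel subunit, gave 0.69 (SE 0.23). Of the 12 genes of the segment, 8 were lower and 4 higher (median -0.14), with 2 lower and 1 higher at an unadjusted p under 0.05. The median was -0.22 without HDAC2-/- array 1. The lower count was 1 without WT array 2 or HDAC2-/- array 2, 4 without HDAC2-/- array 1 and 3 without WT array 1.

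In the collecting duct, the lists of intercalated and principal cells had medians near 0 and array means that overlapped between the groups. Of the intercalated cell genes 9 were lower and 6 higher, and of the principal cell genes 8 were higher and 6 lower. Of 15 intercalated cell genes, 3 were lower and 0 higher at an unadjusted p under 0.05, namely Slc26a4, the exchanger pendrin, at -0.85 (SE 0.24), Atp6v0d2, a proton pump subunit, at -0.82 (SE 0.18), and Slc4a9 at -0.62 (SE 0.28). Atp6v0d2 read 8.07, 8.69 and 8.42 in ischemic WT and 7.74, 7.53 and 7.45 in ischemic HDAC2-/- kidneys, without overlap, and was higher by 0.25 in HDAC2-/- kidneys without ischemia. The arrays of Slc4a9 overlapped, and it differed by -0.34 without HDAC2-/- array 2, -0.40 without WT array 2 and -0.96 without HDAC2-/- array 1. The list median was -0.06, and it was 0.09 without HDAC2-/- array 2, 0.005 without WT array 3, -0.24 without WT array 1 and -0.30 without HDAC2-/- array 1. Of 14 principal cell genes, 4 were higher and 0 lower at that p, with a median of 0.09, namely Apela, the water channel Aqp2 at 0.57 (SE 0.23), the vasopressin receptor Avpr2 at 0.55 (SE 0.23) and Fxyd4 at 0.41 (SE 0.17). Aqp2 read 11.34, 10.60 and 11.83 in ischemic WT and 11.84, 11.94 and 11.69 in ischemic HDAC2-/- kidneys, with overlap, and the difference was 0.24 without WT array 2. Fxyd4 differed by 0.19 without the same array. Without that array the median of the list was 0.005 and 2 genes were higher, as also without HDAC2-/- array 1 or 3. The median was 0.20 without WT array 3 and 0.15 without HDAC2-/- array 2.

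**Figure D2:**
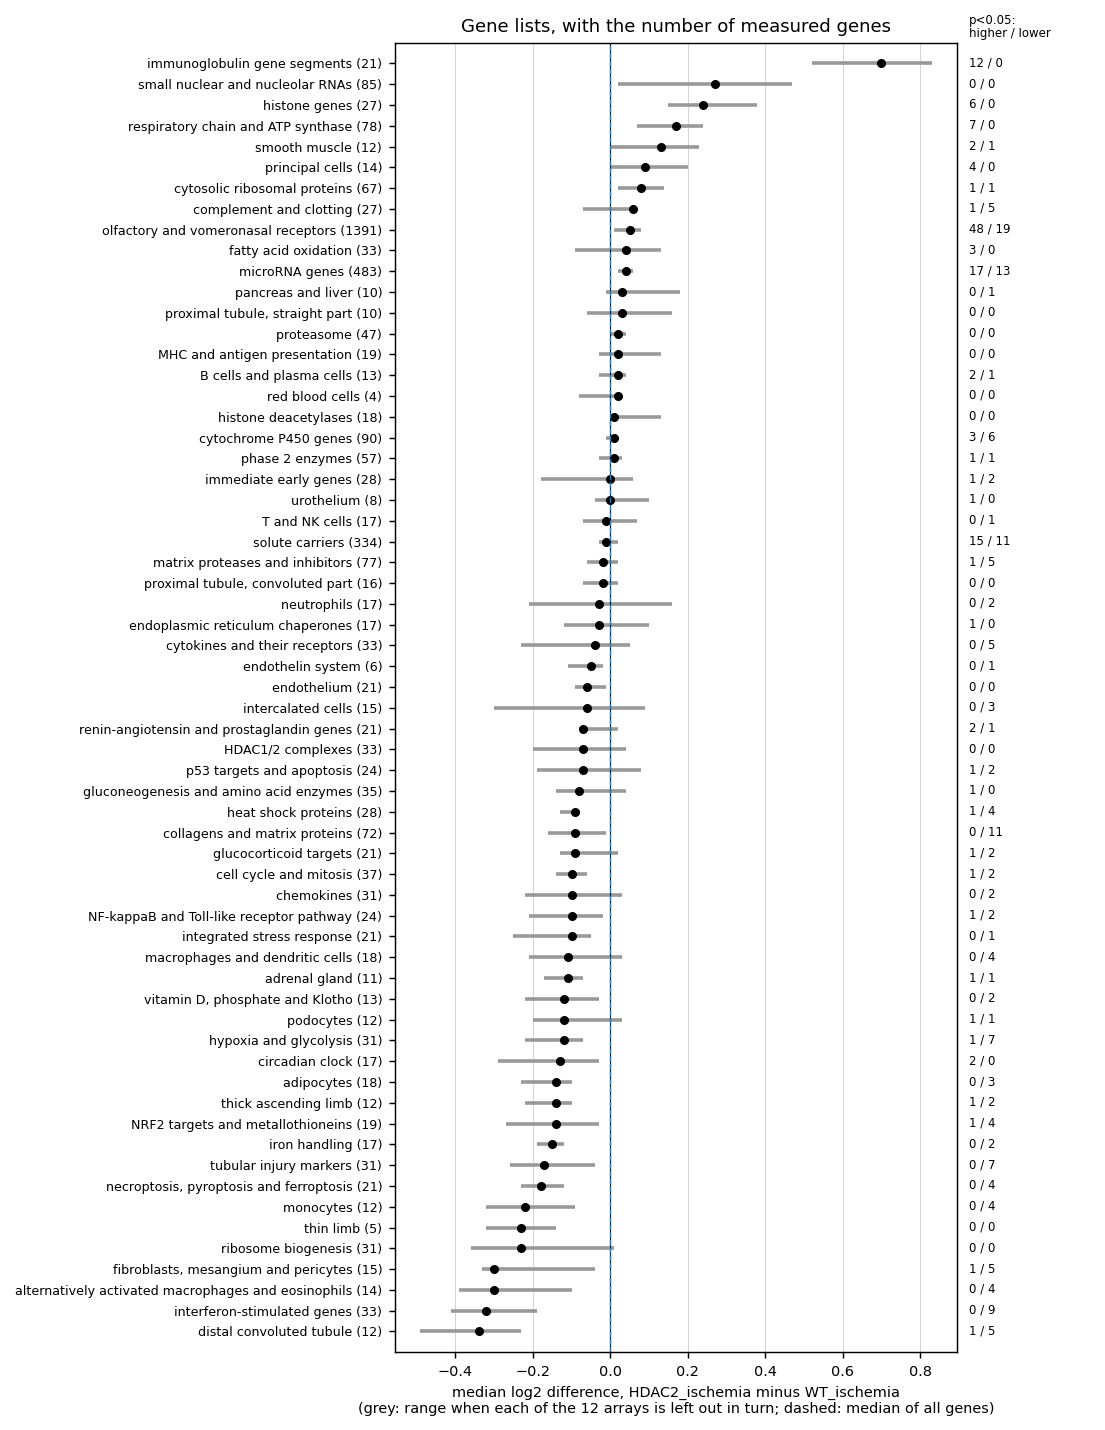
Median log2 difference, ischemic HDAC2-/- minus ischemic WT (x axis), for each of 62 gene lists (y axis, with the number of measured genes), where grey bars give the range when each of the 12 arrays is left out in turn and the counts at the right give genes at an unadjusted p under 0.05, higher and lower. Immunoglobulin genes lie highest at 0.70, and the distal convoluted tubule at -0.34 and interferon-stimulated genes at -0.32 lie lowest.

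Interstitial, macrophage and fat cell genes were lower in ischemic HDAC2-/- kidneys on the mean, and WT array 1 was the highest array for many of them. Of 72 genes for collagens and other matrix proteins, 53 lay below 0 and 19 above, with a median of -0.09. At an unadjusted p under 0.05 from limma 11 were lower (15.3%, against 3.15% of all genes) and 0 higher. Replicate 1 of ischemic WT was the highest of the 6 arrays for 39 of the 72 genes. Without it the median was -0.01, the split was 39 lower and 32 higher, and 4 genes were lower at that p. Without WT array 2 the median was -0.16, and without HDAC2-/- array 3 there were 7 lower genes at that p.

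Thbs2, thrombospondin 2 of the matrix, held without that array. It read 6.95, 6.97 and 6.38 in ischemic WT and 6.0, 5.78 and 5.80 in ischemic HDAC2-/- kidneys, a difference of -0.91, or 1.87-fold lower (SE 0.16, adjusted p = 0.464 from limma), and -0.81 without WT array 1. By contrast Col1a1, collagen I, read 9.38, 7.68 and 8.05 against 7.86, 7.23 and 7.82, and its difference of -0.73 (SE 0.34) became -0.23 without that array. Col1a1 was also lower without ischemia, by a difference of -0.82. In the list of 15 genes of fibroblasts, mesangium and pericytes, 5 were lower and 1 higher at that p, the median being -0.30, and without WT array 1 the lower count was 0 and the median -0.045. The median was -0.16 and the lower count 3 without HDAC2-/- array 3.

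Of 18 macrophage and dendritic cell genes, 13 lay below 0 and 5 above (median -0.11). At an unadjusted p under 0.05 from limma 4 were lower (22.2%, against 3.15% of all genes) and 0 higher. These were Mrc1, the mannose receptor, at -0.88 (SE 0.30), Folr2 at -0.69 (SE 0.22), Lyve1 at -0.63 (SE 0.22) and Fcgr1, a receptor for IgG, at -0.53 (SE 0.17). Mrc1 read 7.49, 5.90 and 6.56 in ischemic WT and 5.66, 5.80 and 5.84 in ischemic HDAC2-/- kidneys. Replicate 2 of ischemic WT was close to the HDAC2-/- arrays, and without replicate 1 the difference was -0.46. Lyve1, whose arrays overlapped, and Fcgr1 differed by -0.39 and -0.31 without that array. The pan-macrophage markers Adgre1 and Csf1r differed by -0.01 (SE 0.21) and -0.04 (SE 0.33). Without WT array 1 the list median was 0.03, with 2 lower genes and 1 higher. The median was -0.21 without WT array 2, -0.17 without WT array 3 and -0.19 without HDAC2-/- array 2.

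Of 18 fat cell genes, 12 were lower and 6 higher (median -0.14). At an unadjusted p under 0.05 from limma 3 were lower (16.7%, against 3.15% of all genes). Car3, carbonic anhydrase 3, which fat and muscle make in quantity, read 9.37, 8.56 and 8.24 in ischemic WT and 7.60, 7.12 and 7.43 in ischemic HDAC2-/- kidneys. No array overlapped, and the difference was -1.34, or 2.53-fold lower (SE 0.25, adjusted p = 0.517 from limma), with -1.19 in a second probe set and -0.72 without ischemia. Retn, the adipokine resistin, read 8.33, 5.19 and 6.58 against 5.37, 5.47 and 5.77, and its difference of -1.16 (SE 0.50) became -0.35 without WT array 1 and -1.92 without WT array 2. Ucp1 of brown fat gave -0.79 (SE 0.27), and -0.38 without WT array 3. The defining fat cell gene Adipoq lay between 3.90 and 4.70 on all 6 arrays and differed by 0.04 (SE 0.21). The mean of the whole list was 7.74, 7.19 and 7.54 on the ischemic WT arrays and 7.18, 7.23 and 7.26 on the ischemic HDAC2-/- arrays. Whether fat or other attached tissue took part in the differences was not tested. The median was -0.10 without WT array 1 and -0.23 without WT array 2, and 1 gene was lower at that p without HDAC2-/- array 1, 5 without WT array 2, and 2 without WT array 1 or 3 or HDAC2-/- array 2.

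Some larger differences came with overlapping arrays. Retnla, a secreted relative of resistin, read 6.22, 3.05 and 7.66 in ischemic WT and 3.40, 3.49 and 3.54 in ischemic HDAC2-/- kidneys. WT replicate 2 was below every HDAC2-/- array. Saa3, an acute-phase serum amyloid, read 10.14, 5.98 and 7.96 against 6.05, 6.45 and 5.92. Ifi205 read 9.48, 7.04 and 8.06 against 7.08, 6.60 and 6.48. In all 3 genes the HDAC2-/- arrays were close together and WT arrays 1 and 3 were high. Their differences were -2.17 (SE 0.74), -1.89 (SE 0.67) and -1.47 (SE 0.44), with adjusted p = 0.713 from limma for each. Without WT array 1 they were -1.88, -0.83 and -0.83, and Retnla gave -3.46 without WT array 2, its one adjusted p under 0.05 in limma (0.00145), and -1.16 without WT array 3.

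**Figure D3:**
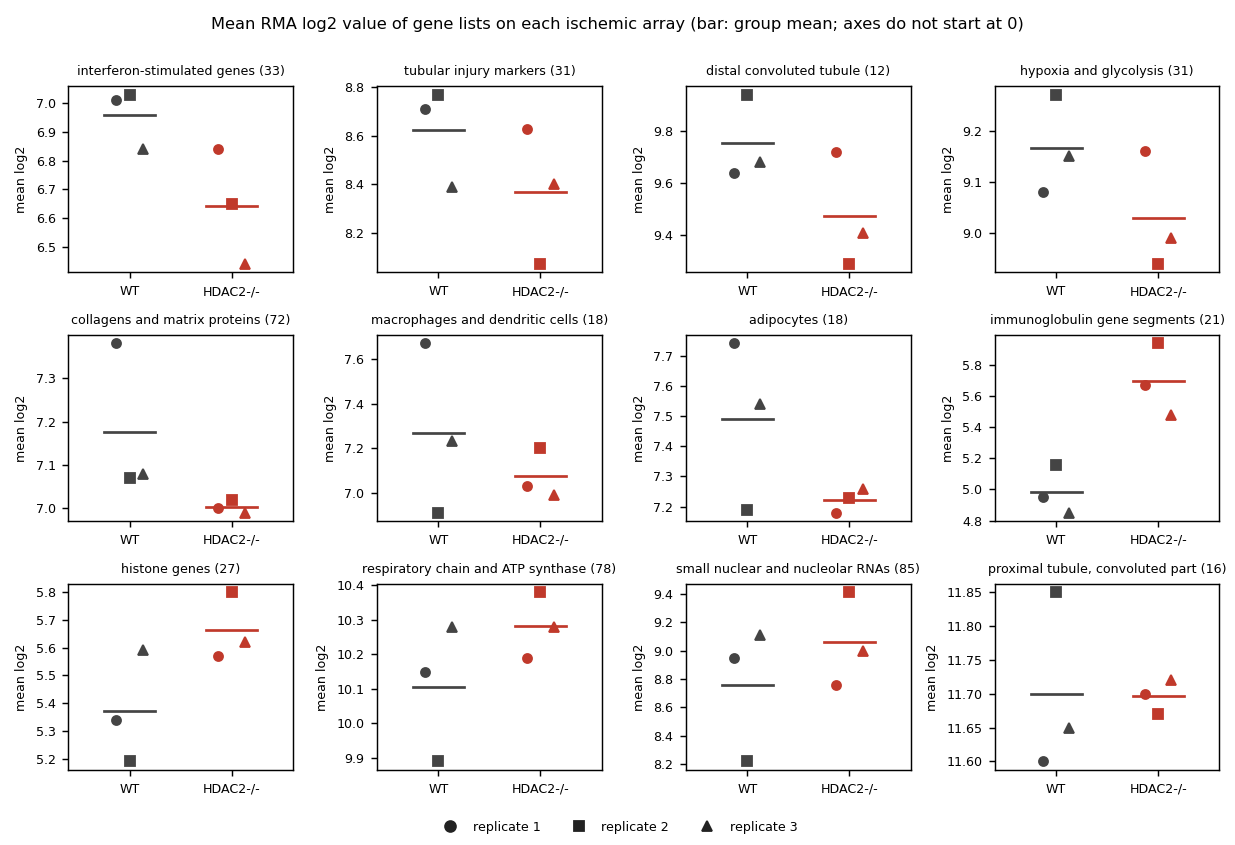
Mean RMA log2 value (y axis, which does not start at 0) of 12 gene lists on each of the 3 ischemic WT arrays (grey) and 3 ischemic HDAC2-/- arrays (red), with marker shape for the replicate and a bar for the group mean. WT array 1 is highest for collagens, macrophages and fat cells, WT array 2 is lowest for small nuclear and nucleolar RNAs at 8.22, and the immunoglobulin means do not overlap between the groups.

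Interferon-stimulated genes were lower in ischemic HDAC2-/- kidneys in most members of their list. Type I interferons act through the interferon-stimulated response element, a pair of GAAA blocks, in the promoters of their targets. Of 33 measured genes, 30 lay below 0 and 3 above, with a median of -0.32 against 0.00 over all genes. At an unadjusted p under 0.05 from limma 9 were lower (27.3%) and 0 higher, where the share of all genes that were lower is given above. The arrays did not overlap in 9 of the genes, all lower, where 4.46% of all genes were lower without overlap. The median was -0.16 without ischemia, with 25 lower and 8 higher. At 4 h the list means met at one value, being 7.01, 7.03 and 6.84 on the ischemic WT arrays and 6.84, 6.65 and 6.44 on the ischemic HDAC2-/- arrays. HDAC2-/- array 3 was the lowest ischemic array for 20 of the 33 genes. When single arrays were left out, the median at 4 h lay between -0.41 and -0.19 and 5 to 13 genes were lower at that p, with 5 (median -0.19) without HDAC2-/- array 3 and -0.19 without WT array 2.

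Rsad2, which encodes the antiviral enzyme viperin, read 7.63, 7.36 and 7.40 in ischemic WT and 6.86, 6.68 and 6.22 in ischemic HDAC2-/- kidneys. No array overlapped, and the difference was -0.88, or 1.84-fold lower (SE 0.18, 95% interval -1.27 to -0.48, adjusted p = 0.551 from limma). Without ischemia Rsad2 differed by -0.26. The next largest were Iigp1, an interferon-induced GTPase, at -0.75 (SE 0.23), Mx2, a GTPase against viruses, at -0.67 (SE 0.18), Usp18, which removes ISG15 from proteins, at -0.67 (SE 0.21), Oasl2 at -0.62 (SE 0.25) and Ifit1 at -0.61 (SE 0.16). In Oasl2 the groups overlapped, and in the other 5 they did not. Without HDAC2-/- array 3 Iigp1 differed by -0.45 and Oasl2 by -0.36. Isg15 differed by -0.03 (SE 0.15) and Ifit3 by 0.05 (SE 0.12), so not all members of the list were lower.

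The promoters of Rsad2 and Ifit1 are shown because these genes had the smallest p of the list among those whose promoter held the letters searched for, GAAANNGAAA on either strand, overlapping matches counted. Each window runs from 250 bases before to 50 after the start of the gene in RefSeq (GRCm38.p6), with matches in capitals, which here read as the reverse complement. The Rsad2 window is chr12:26456403-26456702 on the minus strand and the Ifit1 window chr19:34640639-34640938 on the plus strand.
Rsad2: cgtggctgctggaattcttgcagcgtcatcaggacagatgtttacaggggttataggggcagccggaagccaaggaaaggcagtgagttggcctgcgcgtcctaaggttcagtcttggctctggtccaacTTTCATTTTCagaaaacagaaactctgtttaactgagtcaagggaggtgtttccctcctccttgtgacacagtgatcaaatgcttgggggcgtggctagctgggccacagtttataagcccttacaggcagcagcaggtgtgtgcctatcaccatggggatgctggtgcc
Ifit1: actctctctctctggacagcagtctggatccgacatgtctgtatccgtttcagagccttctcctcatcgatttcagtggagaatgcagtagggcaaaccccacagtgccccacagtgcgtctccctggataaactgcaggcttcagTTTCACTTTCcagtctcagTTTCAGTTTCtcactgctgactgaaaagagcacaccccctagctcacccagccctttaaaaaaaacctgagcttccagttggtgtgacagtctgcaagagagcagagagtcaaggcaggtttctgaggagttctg
The match in Rsad2 ended 111 bases before the start, and those in Ifit1 95 and 76 bases before it. Of 25 genes of the list with a promoter in the RefSeq table, 15 held a match, against 3.99% of all genes there and 3.44% of all 32851 promoters. Matches were found in 4 of the 6 genes that were lower at an unadjusted p under 0.05 from limma and in 11 of the other 19, among them Isg15, Ifit3 and Bst2, which differed by -0.03, 0.05 and 0.12. A match describes letters and does not show that a factor binds there.

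Immunoglobulin genes were higher in ischemic HDAC2-/- kidneys. Plasma cells and B cells transcribe these genes after joining their variable segments. Of 21 measured genes and segments, 20 were higher and 1 lower, with a median of 0.70. At an unadjusted p under 0.05 from limma 12 were higher (57.1%, against 3.58% of all genes) and 0 lower. The arrays did not overlap in 11 of the higher ones, where 5.9% of all genes were higher without overlap. The 1 lower gene, Ighmbp2 at -0.19 (SE 0.16), encodes a helicase and came into the list through its name. Leaving out single arrays gave a median from 0.52 to 0.83 and 6 to 13 higher genes at that p, with 6 without WT array 1 or 3 or HDAC2-/- array 2. The median without ischemia was 0.20.

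Igkv5-43, a variable segment of the kappa light chain, read 9.54, 9.51 and 9.08 in ischemic WT and 10.28, 11.29 and 10.18 in ischemic HDAC2-/- kidneys. The HDAC2-/- arrays were all above the WT arrays, with replicate 2 highest, and the difference was 1.21, or 2.31-fold (SE 0.33, adjusted p = 0.713 from limma), with 1.08 and 1.94 in 2 further probe sets. Igkv8-30 read 5.01, 4.33 and 3.58 against 6.26, 6.26 and 5.11 and differed by 1.57 (SE 0.38) at 4 h and by 1.66 without ischemia. Ighm, the mu heavy chain, gave 1.08 (SE 0.41) in the probe set of the highest mean, and 0.64 without HDAC2-/- array 2. Its 6 other probe sets disagreed, and ran from -1.22 (SE 0.42) to 1.11 (SE 0.39). Segments share sequence, so the probe sets are not independent.

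The list of B cell and plasma cell markers, which holds Ighm as well, had a median of 0.02 over 13 genes, with 2 higher (Jchain and Ighm) and 1 lower (Sdc1, the plasma cell surface marker CD138 that tubules also carry, at -0.48, SE 0.17) at an unadjusted p under 0.05. A second probe set of Sdc1 gave -0.17 (SE 0.12). Ms4a1, the B cell marker CD20, differed by -0.05 (SE 0.13), Cd79a by 0.20 (SE 0.19) and the plasma cell gene Mzb1 by 0.02 (SE 0.17). The mean of the immunoglobulin list was 4.95, 5.16 and 4.85 on the ischemic WT arrays and 5.67, 5.94 and 5.48 on the ischemic HDAC2-/- arrays.

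**Figure D4:**
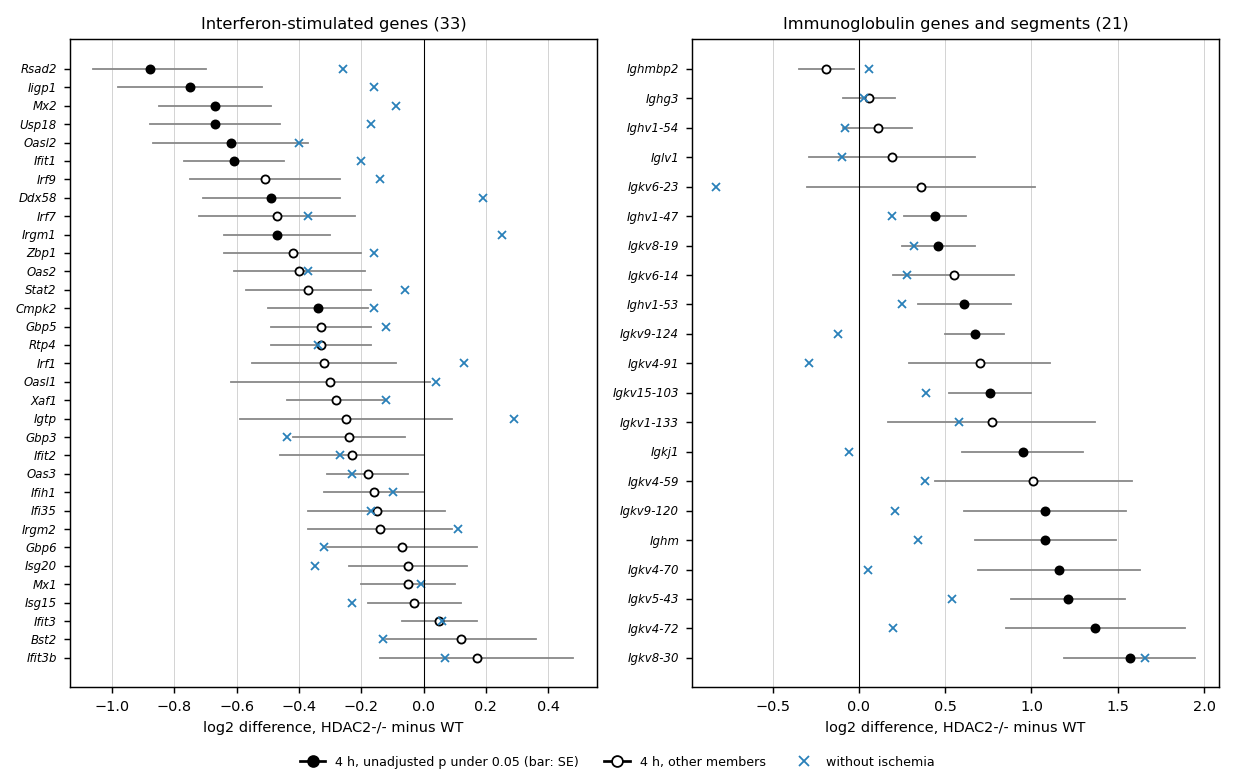
Log2 difference HDAC2-/- minus WT (x axis) of 33 interferon-stimulated genes (left) and 21 immunoglobulin genes and segments (right), at 4 h as circles with the SE as bars, filled at an unadjusted p under 0.05, and without ischemia as blue crosses. Most circles lie below 0 on the left, from Rsad2 at -0.88, and above 0 on the right, up to Igkv8-30 at 1.57.

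Genes of low-oxygen response and glycolysis were lower in part. Of 31 genes, 23 were lower and 8 higher (median -0.12). At an unadjusted p under 0.05 from limma 7 were lower (22.6%, against 3.15% of all genes) and 1 higher (3.23%, against 3.58%). Pkm, pyruvate kinase, read 10.94, 11.03 and 10.66 in ischemic WT and 10.66, 10.17 and 10.24 in ischemic HDAC2-/- kidneys, which met at one value, and differed by -0.52 (SE 0.17). Hk2, hexokinase 2, read 6.71, 6.60 and 6.64 against 6.22, 6.31 and 6.12 and differed by -0.43 (SE 0.13) with no overlap. Pfkp, a phosphofructokinase, gave -0.75 (SE 0.27) and Ddit4, an inhibitor of mTORC1, -0.71 (SE 0.25). Both had overlapping arrays, and they differed by -0.40 without WT array 2 and by -0.42 without WT array 3, respectively. The median was -0.07 and the lower count 4 without WT array 2, and -0.07 with 5 lower without HDAC2-/- array 2. It was -0.22 without HDAC2-/- array 1, and 4 genes were lower without HDAC2-/- array 3.

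Lists of stress and cell death differed among themselves. Immediate early genes split 14 higher and 14 lower, and of 17 chaperones of the endoplasmic reticulum 8 were higher and 9 lower. Of 28 heat shock protein genes, 17 were lower and 11 higher. At an unadjusted p under 0.05 from limma 4 of them were lower (14.3%) and 1 higher (3.57%), against 3.15% and 3.58% of all genes. The lower ones included Hspa1l at -0.90 (SE 0.34), with overlapping arrays, and Hspd1 at -0.52 (SE 0.17), without overlap. A second probe set of Hspa1l gave 0.13 (SE 0.16), so its direction depended on the probe set. The lower count was 1 without HDAC2-/- array 3 and 8 without HDAC2-/- array 1. Of 21 genes of the integrated stress response, 17 were lower and 4 higher, with 1 lower (4.76%) at that p. Of 21 genes of necroptosis, pyroptosis and ferroptosis, 18 were lower and 3 higher (median -0.18), 4 of them (19%) lower at an unadjusted p under 0.05. These were Slc7a11, the cystine transporter, at -0.68 (SE 0.21), Acsl4, which loads lipids with fatty acids prone to oxidation, at -0.50 (SE 0.19), Mlkl, the pore former of necroptosis, at -0.46 (SE 0.21), and Pycard, an inflammasome adaptor, at -0.33 (SE 0.15). A second probe set of Slc7a11 gave -0.20 (SE 0.14). Without WT array 1 the lower count was 1, and without HDAC2-/- array 2 the median was -0.115. Mlkl differed by -0.29 without WT array 2 and -0.30 without HDAC2-/- array 2. Of 33 cytokines and receptors, 15 were higher and 18 lower. At that p 5 were lower (15.2%) and 0 higher, the lower ones including the interleukin receptors Il13ra1 at -0.56 (SE 0.19) and Il1r1 at -0.52 (SE 0.18). The median, however, was -0.04, and was 0.053 without WT array 1, 0.023 and 0.005 without HDAC2-/- arrays 2 and 3 in turn, -0.12 without WT array 2 and -0.23 without HDAC2-/- array 1. The lower count was 2 without WT array 2 or HDAC2-/- array 3, and 3 without HDAC2-/- array 2. Of 19 targets of NRF2 and metallothioneins, 4 were lower (21.1%) and 1 higher (5.26%) at that p (median -0.14), with Txnrd1 at -0.51 (SE 0.22). Both counts and median shrank without WT array 2, to 1 lower and -0.035, with Txnrd1 at -0.24. Without HDAC2-/- array 2 they were 1 and -0.055, and without WT array 1 the median was -0.27.

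Mitochondrial genes were mostly higher by small amounts. Of 78 genes of the respiratory chain and ATP synthase, 62 were higher and 16 lower, with a median of 0.17 against -0.01 without ischemia. At an unadjusted p under 0.05 from limma 7 were higher (8.97%, against 3.58% of all genes) and 0 lower. Ndufb11, a subunit of complex I, read 6.90, 6.18 and 7.23 in ischemic WT and 7.45, 7.55 and 7.17 in ischemic HDAC2-/- kidneys, a difference of 0.62 (SE 0.21), with overlap and WT replicate 2 lowest. Cox7a1 gave 0.59 (SE 0.24), Ndufa2 0.43 (SE 0.18) and Uqcrfs1 0.41 (SE 0.18). Without WT array 2 these 4 differed by 0.32, 0.27, 0.21 and 0.22. The list depended on single arrays. Without WT array 2 the median was 0.07 with 1 higher gene at that p, without HDAC2-/- array 2 it was 0.12 with 1. The higher count was 23 without WT array 3, 12 without HDAC2-/- array 1, and 4 without HDAC2-/- array 3. Replicate 2 of ischemic WT and of ischemic HDAC2-/- stood at the ends of the small RNA level (8.22 and 9.41). With that level as covariate, Ndufb11, Cox7a1, Ndufa2 and Uqcrfs1 differed by 0.45, 0.36, 0.27 and 0.25. The median of the list in that fit is not given here.

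Most histone genes were higher in ischemic HDAC2-/- kidneys. Of 27 measured genes, 22 were higher and 5 lower, with a median of 0.24 against -0.08 without ischemia. At an unadjusted p under 0.05 from limma 6 were higher (22.2%, against 3.58% of all genes) and 0 lower. H4c9, a histone H4 gene, read 6.27, 5.89 and 6.90 in ischemic WT and 7.46, 7.78 and 7.26 in ischemic HDAC2-/- kidneys. The groups did not overlap, and the difference was 1.15, or 2.21-fold (SE 0.25, 95% interval 0.61 to 1.68, adjusted p = 0.551 from limma). H2bc12, a histone H2B gene, read 5.63, 5.54 and 6.23 against 6.51, 7.04 and 6.74, a difference of 0.96 (SE 0.27), also without overlap. Without ischemia both genes differed by little, -0.06 and -0.03. With the small RNA level as covariate H4c9 and H2bc12 differed by 0.98 and 0.72. Genes of one histone share sequence, so their probe sets are not independent. The list means overlapped, at 5.34, 5.19 and 5.59 on the ischemic WT arrays and 5.57, 5.8 and 5.62 on the ischemic HDAC2-/- arrays. WT array 2 was the lowest ischemic array for 14 of the 27 genes, and HDAC2-/- array 2 the highest for 12. The list median was 0.15 without WT array 2 and 0.38 without WT array 3. The higher count at that p was 3 without HDAC2-/- array 2, 4 without WT array 2 and 9 without WT array 3. Small nuclear and nucleolar RNAs had 78 of 85 genes higher with a median of 0.27 but 0 at an unadjusted p under 0.05, and their median was 0.02 without WT array 2 and 0.095 without HDAC2-/- array 2. It was 0.47 without WT array 3 and 0.43 without HDAC2-/- array 1, where 10 and 11 were higher at that p.

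MicroRNA genes as a whole showed shares near the background, with 17 of 483 (3.52%) higher and 13 (2.69%) lower at an unadjusted p under 0.05 from limma. There were 27 higher without WT array 3 and 8 lower without HDAC2-/- array 3. The array measures RNA from the gene of a microRNA and not the mature strand. The 4 with the largest differences at that p are shown with the mature sequences of RefSeq (GRCm38.p6), the seed, bases 2 to 8, in capitals, to let the seeds be compared.
miR-1931: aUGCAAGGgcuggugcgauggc
miR-344c-3p: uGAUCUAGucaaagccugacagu
miR-344c-5p: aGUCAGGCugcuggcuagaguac
miR-3473b: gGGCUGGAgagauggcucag
miR-5124a: gGUCCAGUgacuaagagcau
No seed was shared among them. Mir1931 read 6.85, 6.64 and 7.17 in ischemic WT and 7.98, 7.36 and 7.84 in ischemic HDAC2-/- kidneys, a difference of 0.84 (SE 0.22, adjusted p = 0.701 from limma) without overlap, and it was also higher without ischemia, by 0.68. Mir344c differed by 0.94 (SE 0.24) at a mean of 3.02 in ischemic WT kidneys, near the low end of the array. Mir3473b, at -1.13 (SE 0.52), and Mir5124a, at -1.12 (SE 0.48), had overlapping arrays, and Mir5124a differed by -0.59 without WT array 2 and -0.73 without HDAC2-/- array 2.

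Of 18 histone deacetylase genes and 33 genes of HDAC1 and HDAC2 complexes, none had an unadjusted p under 0.05 from limma, with medians of 0.01 and -0.07. The second was 0.04 without WT array 2, -0.15 without WT array 1, -0.12 without WT array 3 and -0.20 without HDAC2-/- array 1, and the first 0.13 without HDAC2-/- array 2. In the complex list 3 genes were higher at that p without WT array 1, 1 higher and 3 lower without WT array 3, 2 lower without HDAC2-/- array 1 and 1 higher without HDAC2-/- array 3. Among the deacetylases 1 was higher without WT array 3 and 1 lower without HDAC2-/- array 1. Hdac1 read 8.42, 9.09 and 8.62 in ischemic WT and 8.73, 8.28 and 8.30 in ischemic HDAC2-/- kidneys, a difference of -0.27 (SE 0.21, 95% interval -0.73 to 0.18), and -0.08 without WT array 2. Rcor1, which encodes CoREST, differed by -0.13 (95% interval -0.51 to 0.24) and Kdm1a, its partner LSD1, by -0.16 (95% interval -0.53 to 0.21), and both turned above 0, to 0.04 and 0.03, without WT array 2. Hdac2 itself differed by 0.12 (95% interval -0.28 to 0.51). Of 6 genes of the endothelin system, 3 were higher and 3 lower (median -0.05), with 1 lower (16.7%) and 0 higher at an unadjusted p under 0.05 from limma. That gene, Edn1, differed by -0.82 with overlapping arrays, by -0.53 without WT array 2 and by -1.10 without HDAC2-/- array 1. The lower count of the list was 0 without WT array 2 and 2 without HDAC2-/- array 2. Ednra was not among its measured genes.

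Of 21 endothelial genes none had an unadjusted p under 0.05 from limma (median -0.06), of 12 podocyte genes 1 was higher and 1 lower (median -0.12), and of 17 T and NK cell genes 1 was lower (median -0.01). The podocyte median was 0.03 without WT array 2, -0.20 without HDAC2-/- array 1 and -0.015 without HDAC2-/- array 2. Of 12 monocyte genes 4 were lower and 0 higher at that p (median -0.22), and 2 were lower with a median of -0.09 without WT array 1. Of 14 genes of alternatively activated macrophages and eosinophils 4 were lower and 0 higher at that p (median -0.30), and 2 were lower with a median of -0.10 without WT array 1. The median of these 14 genes was -0.18 without HDAC2-/- array 1. Of 12 smooth muscle genes 2 were higher and 1 lower (median 0.13), with a median of 0.001 without WT array 3 and 0.23 without WT array 2, and 0 lower without either of these or any 1 HDAC2-/- array. Of 17 neutrophil genes 2 were lower, Lcn2 among them, with a median of -0.03 that ran from -0.22 without WT array 2 to 0.155 without WT array 3. The neutrophil lower count was 6 without WT array 2 or HDAC2-/- array 1.

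Cytochrome P450 genes were mixed, with a median of 0.01. At an unadjusted p under 0.05 from limma 3 of 90 (3.33%) were higher and 6 (6.67%) lower. Of all genes, 3.58% were higher and 3.15% lower at that p, so the higher share was near the background. Of the P450 genes, 6 were higher without HDAC2-/- array 1, 1 was higher without WT array 1 and 3 were lower without HDAC2-/- array 3. Among them Cyp2d12 had close replicates. It read 10.47, 10.54 and 10.65 in ischemic WT and 9.89, 9.97 and 9.90 in ischemic HDAC2-/- kidneys, a difference of -0.63 (SE 0.14, adjusted p = 0.617 from limma), and the same difference of -0.63 without ischemia. Cyp4b1, on the other side, gave 0.62 (SE 0.25) at 4 h and 0.42 without ischemia. Olfactory and vomeronasal receptors, taken as genes with little or no use in the kidney, had 48 of 1391 (3.45%) higher and 19 (1.37%) lower at that p, and 34 and 30 without WT array 2.

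Set beside the groups without ischemia, the 15 leading lower genes all had smaller differences there than at 4 h. At 4 h all 15 were lower by choice, and without ischemia 12 of them had the same sign but 2, Car3 and Lcn2, had an unadjusted p under 0.05 from limma. The difference of both differences had an unadjusted p under 0.05 in 12 of the 15. For the 15 leading higher genes, 7 had the same sign without ischemia, 4 had an unadjusted p under 0.05 there, and 8 had one for the difference of both differences. No probe set passed that test at an adjusted p under 0.05 in limma (0 of 34472, with 1445 at an unadjusted p under 0.05). The comparisons share the ischemic arrays on which the genes were chosen, so these counts describe the genes and do not test them. In WT kidneys 11 of the 15 were higher after ischemia at an adjusted p under 0.05 from limma against 5 in HDAC2-/- kidneys. Of the higher genes, 7 were lower after ischemia in WT and 0 in HDAC2-/- kidneys. Serpina3n, for example, was higher after ischemia by 3.15 in WT and 1.71 in HDAC2-/- kidneys, and Sprr2f by 3.20 and 1.90. The same WT arrays enter each of these comparisons.

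**Figure D5:**
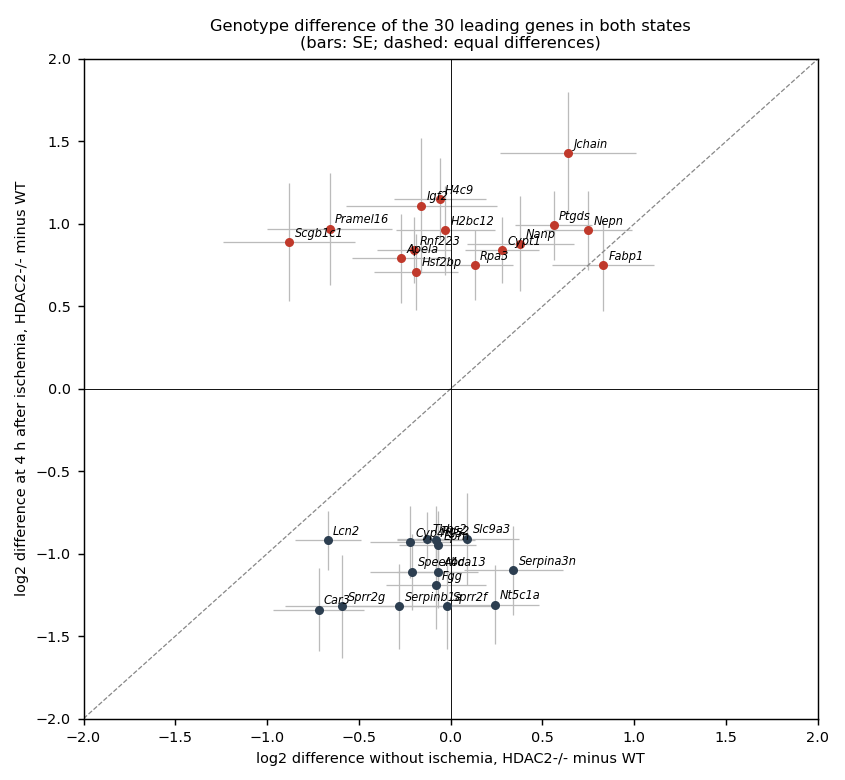
Log2 difference HDAC2-/- minus WT without ischemia (x axis) and at 4 h after ischemia (y axis) for the 15 leading lower genes (dark) and 15 leading higher genes (red), with SE bars and a dashed line of equal differences. Car3 and Lcn2 lie left of the other lower genes at -0.72 and -0.67, Nepn and Fabp1 lie near the dashed line, and Igf2 and H4c9 lie near 0 on the x axis.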

How the data were processed

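RNA from 12 mice, 1 Affymetrix Mouse Gene 2.0 ST array each, had been normalized by the authors with Transcriptome Analysis Console 4.0 (RMA). They deposited log2 values. RMA takes in no RNA spike, so values are relative to each array. Fits used limma 3.58.1 in R 4.3.3 on 34472 probe sets, with 1 mean for each of 4 groups of 3, the contrast of the ischemic groups, empirical Bayes moderation and Benjamini-Hochberg adjustment over all probe sets. The median SE was 0.17, and the number of arrays limits the precision. Of the probe sets, 23525 had 1 gene symbol in GEO's platform annotation, 1816 several and 9131 none. The probe set of the highest mean stood for a gene in lists. Members and lists were chosen with earlier results of these data known. Genes named were the 15 with the largest differences in each direction among single-symbol genes at an unadjusted p under 0.05 whose arrays did not overlap, leaving out predicted genes, gene segments, small RNAs and olfactory receptors, up to 4 members of each list by size of difference at that p (the 2 of smallest p where none passed), and genes the study names. Other genes, such as Saa3, Ifi205 and further list members, were chosen after their values were seen. Whether mice shared litters is not stated, so p-values measure the spread between these arrays. Alternatives were centring, quantile normalization, a mean of at least 5, single symbols only, the 6 ischemic arrays only, a trended robust fit, no moderation, array weights, a replicate block, the small RNA level as covariate, other thresholds (adjusted p under 0.1 with 1.5-fold) and each array left out. The script was tested on simulated data.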

Additional observations from a re-analysis of the deposited data

How the results depend on the processing

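No setting gave more than 3 probe sets at an adjusted p under 0.05 in limma. Array weights gave 3, leaving out single arrays 0 to 1. Leaving out single arrays gave 670 to 2060 higher and 757 to 1491 lower at an unadjusted p under 0.05, and at least 2-fold 38 to 79 higher and 18 to 73 lower. At least 2-fold, 13 were higher among probe sets of 1 symbol, 26 were higher without moderation, and 54 were lower with array weights. Of 1116 list medians under alternatives, 1099 moved by less than 1 SD between arrays. Both counts include the fits without 1 of the 6 arrays without ischemia, which cannot move these medians. With array weights the medians were -0.365 for neutrophils, 0.117 for B cells and -0.063 for complement and clotting. With the small RNA level as covariate they were 0.036 for the endothelin system, instead of -0.05, and 0.004 for microRNA genes.

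When single arrays were left out, medians ran from -0.297 to 0.092 for intercalated cells, -0.203 to 0.032 for podocytes, -0.328 to -0.045 for fibroblasts, 0.001 to 0.234 for smooth muscle, -0.084 to 0.02 for red blood cells, -0.042 to 0.098 for urothelium, 0.001 to 0.133 for histone deacetylases, -0.253 to -0.048 for the integrated stress response, -0.073 to 0.073 for complement, -0.192 to 0.079 for p53 targets and -0.363 to 0.01 for ribosome biogenesis. Of 182 named genes, those that changed sign were Ermap (-0.02 with the covariate, -0.06 to 0.22 without single arrays), Rcor1 (0.01, -0.24 to 0.04), Kdm1a (0.01 with array weights, -0.29 to 0.03) and Havcr1 (0 after quantile normalization, 0.83 with array weights, 0.31 with the covariate, -0.57 to 0.58). The cause was not tested. With the replicate number as a block, 0 probe sets passed the adjusted p, with 1388 higher and 995 lower at an unadjusted p under 0.05. Deviations of arrays of the same number correlated at -0.28, -0.373 and -0.019, so the numbers did not pair them, and the block changed no call.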
